A study of Mus musculus with 21 samples.

Results

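The wells described here are 130 fibroblast wells of mouse embryonic back skin that had the most RNA of 4 genes known from the lower dermis, Mfap5, Sema3c, C1qtnf3 and Fndc1. They were chosen from 1155 wells named as fibroblasts that held at least 3000 counted RNA molecules, out of 1371 fibroblast-named wells and 1967 wells in all. The score of a well was the mean over the 4 genes of ln(1 + count per 10000), and the 130 highest scores were taken. They are called lower dermal wells, and the 1025 wells left are called other fibroblast wells. The name follows the score alone, since the position of a cell in the skin was not recorded.

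The cells came from back skin of CD1 mouse embryos at embryonic day 15, when the first hair follicles form and some fibroblasts gather into dermal condensates, the clusters that instruct the epidermis above. Cells were sorted into single wells, and each well was sequenced by an automated CEL-Seq2 method that counts RNA molecules by a random tag (unique molecular identifier, UMI). The table names every well as fibroblast, DC0, DC1, DC2 (called condensate wells together, since the labels do not define DC0) or spike-in. Libraries 1 to 7 hold fibroblast wells, and all groups compared share strain, age and tissue. The labels of these libraries name no treatment, genotype or sort gate. They do not say whether the libraries are separate animals or whether well names came from the sort or from clustering, and p-values therefore measure the spread between libraries, which may be technical.

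In embryonic skin, dermal fibroblasts separate by depth. Those near the epidermis receive WNT signals from it and give rise to the papillary dermis and the hair follicle mesenchyme, while deeper cells build the reticular dermis, the fat layer below it and the fascia, a sheet of loose connective tissue over the muscle. Deep and fascial fibroblasts are known for genes of the extracellular matrix and for surface proteins such as Dpp4, Ly6a (Sca-1) and Dlk1.

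The 4 score genes chose the wells, so their values are a description only. In CPM (the UMIs of a gene scaled to 1000000 UMIs, after summing the wells of a group in a library), Mfap5, a microfibril protein, had a lowest, median and highest value over the 7 libraries of 109, 224 and 352.3 in lower dermal wells, and its median in other fibroblast wells was 5.85. The secreted guidance cue Sema3c had 354.2, 505 and 615 CPM, with a median of 8.78 in the others. The secreted factor C1qtnf3 had 384.1, 581 and 754 CPM against 31.8, and the matrix protein Fndc1 had 144.2, 264 and 418 CPM against 21.6. All 4 genes had a UMI in 33 lower dermal wells, 3 in 73 wells and 2 in 24 wells. In spike-in wells, which should hold no cell, at most 3 wells had a UMI of any of them. The score at the edge was 0.735, 0.725 and 0.721 in the last 3 wells taken and 0.701, 0.699 and 0.699 in the first 3 left out, so the edge is not a gap, and 579 of the other fibroblast wells scored 0.

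Each of the 7 libraries gave between 12 and 26 lower dermal wells, or between 9.04% and 13.9% of its fibroblast wells. The exact binomial 95% intervals of all 7 shares overlapped, with the lowest running from 5.15% to 14.5% and the highest from 8.17% to 21.6%. The summed depth was 298117 to 1024755 UMIs per library in lower dermal wells and 2049569 to 5123932 in the others. Lower dermal wells were themselves deeper, with a median of 31324 UMIs against 21420. When the score was computed on wells thinned to 3000 UMIs each, 105 of the 130 wells were chosen again.

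Genes of other cell types were checked in the same sums. The fibrillar collagen Col1a2, a defining gene of fibroblasts, had 19841 to 31677 CPM in lower dermal wells and 12727 to 18468 CPM in the others, and a UMI in all 130 wells. The summed level of 12 markers of mural cells, which wrap small vessels, was 376 to 553 CPM in lower dermal wells and 160.6 to 209 CPM in the others, with 4 of 8 tested markers higher (Kcnj8, Abcc9, Des and Acta2) while Higd1b was at 0 in both. Acta2 was higher in only 4 of 7 libraries, with overlapping groups. The 11 tendon markers summed to 2456 to 3212 CPM against 1629 to 1963 CPM, with 5 of 7 tested higher. The 8 fat cell markers in the table summed to 13.1 to 49.8 CPM against 19.7 to 28.3 CPM. Of them 5, Adipoq included, were at 0 in lower dermal wells and 4 were at 0 in the others. The 12 keratinocyte markers ranged from 33.8 to 548 CPM against 44.1 to 500.3 CPM, with 0 of 4 tested markers passing by edgeR or DESeq2 and 0 at an unadjusted p under 0.05. Their part in the results below was not tested.

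Across all genes, UMIs were summed per library and lower dermal wells were compared with the other fibroblast wells of the same library. Without the score genes, 1714 of 9699 genes tested were higher (17.7%) and 1676 were lower (17.3%) at an adjusted p under 0.05, with a median log2 fold change over all genes of -0.03. In the 4 libraries whose descriptions share 1 run code (libraries 3, 5, 6 and 7) 1568 genes were higher and 1481 lower, and in libraries 1, 2 and 4 763 were higher and 567 lower. Values of the 2 groups did not overlap over the 7 libraries for 5.54% of genes on the higher side and 8.11% on the lower side. The other genes were measured in the wells that the score had chosen, so each difference describes what went along with the score and is not evidence from separate cells. Fold changes below are log2 with their standard error, from edgeR, and an adjusted p stands for Benjamini-Hochberg adjustment over all genes tested.

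The 12 largest rises were taken among genes with a mean log2 CPM of at least 5. They held matrix proteins, surface proteins and a regulator of gene expression. Genes below that level, such as Tek and Wnt2 described further on, rose more than some of the 12. Pamr1 (chr2:102549939-102643041, GRCm38), a secreted peptidase-domain protein, had 81.6, 179 and 234 CPM (lowest, median and highest library) in lower dermal wells and 1.25, 3.82 and 10.1 CPM in the others. Every lower dermal value lay above every other value, and the fold change was 5.40 (SE 0.24, adjusted p = 1.70e-14). A UMI of Pamr1 was found in 75.4% of lower dermal wells, in 4.78% of the others and in 0 of 112 spike-in wells, which held a median of 431 UMIs. Ly6a (chr15:74994877-74998031), the stem cell antigen Sca-1 found on fascial progenitors of adult skin, had 15.9, 108 and 223 CPM against 0, 2.54 and 4.99 CPM. The groups did not overlap, but the lowest lower dermal library stood well below the rest and only 37 of 130 lower dermal wells had a UMI of it. Among the others 4.20% of wells had one, below the 4.46% of spike-in wells, so no expression can be read from that share. The fold change of Ly6a was 5.74 (SE 0.22, adjusted p = 1.52e-15).

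Nov (Ccn3), a matricellular protein that binds integrins, had 71.6, 195 and 832 CPM against 6.04, 7.89 and 14.1 CPM, with a wide spread among libraries. Its fold change was 4.88 (SE 0.20, adjusted p = 5.53e-15). Kcnj8 (chr6:142564837-142571614), the pore of an ATP-sensitive potassium channel that is also a pericyte marker, had 141, 199.8 and 252 CPM against 5.61, 6.83 and 16.2 CPM. Its partner subunit Abcc9, which lies next to it on chromosome 6, had 70.0, 84.1 and 111 CPM against 5.85, 9.73 and 11.01 CPM, so for both channel genes all 7 lower dermal values were above all 7 others. Their fold changes were 4.66 (SE 0.16, adjusted p = 2.52e-16) for Kcnj8 and 3.48 (SE 0.17, adjusted p = 7.72e-14) for Abcc9.

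The zinc finger factor Klf4 (chr4:55527137-55532475), known from epithelial barrier formation and reprogramming, had 610, 822 and 957 CPM against 64.4, 74.6 and 136 CPM. Klf4 rose by 3.32 (SE 0.12, adjusted p = 3.47e-16) in 7 of 7 libraries, and 90.8% of lower dermal wells had a UMI of it against 51.8% of the others and 7.14% of spike-in wells. Adamts5, a protease that cleaves the proteoglycans aggrecan and versican, had 180.4, 219.1 and 275.2 CPM against 19.4, 23.9 and 28.4 CPM and rose by 3.35 (SE 0.10, adjusted p = 2.69e-17). Fmod, a collagen-binding small leucine-rich proteoglycan abundant in tendon, had 66.1, 82.8 and 184 CPM against 8.26, 9.76 and 12.9 CPM. The other named rises were Clu (4.15), a secreted chaperone, Pcdh19 (3.82), a cell adhesion protocadherin, Ptgis (3.63), the prostacyclin synthase, Tmeff2 (3.31), a membrane protein, and Wdr92 (3.46). Exons of Wdr92 share bases with the neighbouring genes Pno1 and Ppp3r1, so its count is uncertain.

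**Figure D1:**
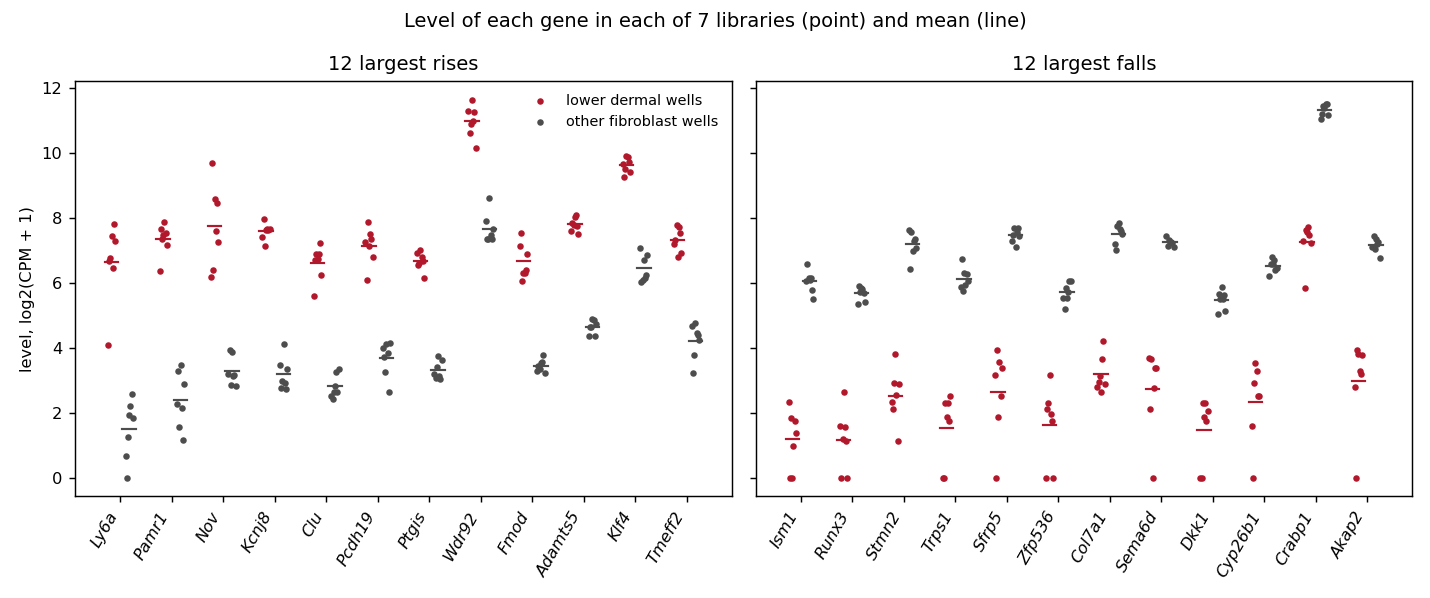
Level of the 12 genes with the largest rises (left) and the 12 with the largest falls (right), as log2(CPM + 1), in each of the 7 libraries (points) with the mean (line), for lower dermal wells (red) and other fibroblast wells (grey). Only genes with a mean log2 CPM of at least 5 were ranked. For each of the 24 genes the 7 red points and the 7 grey points do not overlap, as with Klf4 at 610 to 957 CPM against 64.4 to 136 CPM.

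The 12 largest falls, taken by the same rule, included Crabp1, Trps1 and Dkk1, which are on the upper dermis list. Ism1, a secreted protein, had 0, 1.58 and 3.98 CPM in lower dermal wells against 44.2, 67.3 and 96.1 CPM in the others, and fell by 5.00 (SE 0.28, adjusted p = 1.24e-12). Stmn2, a microtubule regulator best known from neurons, had 1.17, 4.88 and 13.1 CPM against 85.9, 154.9 and 196.5 CPM. The other 8 neuron markers did not pass the filter on low counts, and Elavl3 was at 0 in lower dermal wells. Trps1, a repressor whose loss impairs hair follicles, had 0, 2.63 and 4.75 CPM against 52.5, 66.4 and 105 CPM and fell by 4.38 (SE 0.27, adjusted p = 4.71e-12). In all 3 genes the highest lower dermal library lay below the lowest library of the others.

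Crabp1 (chr9:54764748-54773110), a retinoic acid binding protein of the upper dermis, had 57.0, 176 and 213 CPM against 2134, 2716 and 2958 CPM. Both ranges were narrow beside the gap between them, and Crabp1 fell by 3.86 (SE 0.10, adjusted p = 1.65e-18). With all wells thinned to 3000 UMIs, 38.5% of lower dermal wells and 92.0% of the others had a UMI of Crabp1. Without thinning the shares were 90.8% and 98.8%, and 41.1% of spike-in wells had one, so a UMI in a well is a poor sign of this gene's expression and the level is the better measure. Col7a1, the anchoring fibril collagen under the epidermis, fell by 4.16 (SE 0.17). Sema6d, a membrane semaphorin (-4.11, SE 0.19), and the zinc finger gene Zfp536 (-4.19, SE 0.31) were also lower. Akap2 had a log2 fold change of -3.74, but its exons share bases with Pakap, so its count is uncertain.

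Of 30 listed genes of the lower dermis and fascia found in the table, 19 passed the filter on low counts and were tested. Of these 17 were higher and 1 was lower, with a median log2 fold change of 1.84. Some, such as Efhd1 and Dpp4, passed the filter only through their level in lower dermal wells, so this count and median, and those of the lists below, describe the genes tested and not all listed genes. Dpp4 (chr2:62330073-62412315), the surface peptidase CD26 of fascial progenitors, had 14.2, 44.9 and 60.5 CPM against 1.27, 2.20 and 3.51 CPM, without overlap, and rose by 4.23 (SE 0.25, adjusted p = 3.00e-12). Efhd1, a calcium-binding protein, had 11.1, 22.4 and 42.1 CPM while the others reached at most 0.208 CPM. With 3 or fewer UMIs among the others, its pooled ratio was 206 with a counting interval of 68.5 to 1013. Cd55, which protects cells from complement, rose by 3.89 (SE 0.19), Clec3b, a plasminogen-binding lectin, by 3.83 (SE 0.22), and Cd34, a progenitor surface protein, by 1.77 (SE 0.08). Dlk1, a Notch-family protein of preadipocytes and lower dermis, had 6205, 8212 and 9240 CPM against 1984, 2906 and 3546 CPM and rose by 1.64 (SE 0.05, adjusted p = 6.10e-18). The exception was Ugp2, a sugar nucleotide enzyme, which fell by 0.40 (SE 0.10).

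Fat lineage genes were divided. Of 20 tested, 9 were higher and 6 lower, with a median of 0.40. Beside Klf4, Ebf3 (2.18, SE 0.21) and Cebpd (1.13, SE 0.13), early factors of adipogenesis, were higher. Pparg, the master regulator of fat cells, had 12.97, 15.8 and 33.8 CPM against 18.3, 22.6 and 24.7 CPM, with overlapping groups and a fold change of 0.04 (SE 0.22, adjusted p = 0.928). The activin antagonist Fst passed with 1.64 (SE 0.26), although it was lower in 2 of 7 libraries. The receptor Pdgfra, a marker of nearly all dermal fibroblasts, was lower by 0.85 on the log2 scale (fold change -0.85, SE 0.09) in 7 of 7 libraries.

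Among elastic fibre genes of the matrix, 19 of 23 tested were higher and 2 lower, with a median of 1.41. Ltbp2, a microfibril-bound latent TGF-beta binding protein, had 36.9, 60.5 and 111 CPM against 1.201, 2.49 and 9.12 CPM and rose by 4.41 (SE 0.24, adjusted p = 5.50e-13). Loxl1, a crosslinking enzyme of elastin, rose by 2.44 (SE 0.09), Efemp1 (fibulin-3) by 2.30 (SE 0.16), Fbn1, the main microfibril protein, by 2.04 (SE 0.07) and elastin itself (Eln) by 1.83 (SE 0.08). For Eln the libraries had 633, 865 and 1109 CPM against 226, 285 and 301 CPM, without overlap. Mfap2, another microfibril gene, moved little: it had 726, 807 and 994 CPM against 696, 760 and 860 CPM, overlapping, and a fold change of 0.24 (SE 0.06) that was positive in 5 of 7 libraries.

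Matricellular genes, whose products sit in the matrix and signal to cells, had 17 of 20 tested members higher and 2 lower, with a median of 1.52. Periostin (Postn) had 1943, 2426 and 3355 CPM against 581, 701 and 843 CPM and rose by 1.99 (SE 0.07, adjusted p = 2.52e-16). Thbs3, a thrombospondin of tendon and cartilage, rose by 3.15 (SE 0.24), Abi3bp by 2.02 (SE 0.11), Tnc (tenascin-C) by 1.97 (SE 0.18), Thbs1 by 1.62 (SE 0.06) and fibronectin (Fn1) by 1.45 (SE 0.06). For Thbs1 the groups overlapped, because 1 library was high in both groups, at 2506 CPM in lower dermal wells and 813 CPM in the others. Smoc1, a condensate gene in this list, had 2 UMIs in all lower dermal wells together, and other fibroblast wells were 32.7 times higher with a counting interval of 8.999 to 271.

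Proteoglycan genes had 13 of 20 tested higher and 3 lower, with a median of 0.76. The small leucine-rich proteoglycans did not move together. Ogn had 481, 614 and 747 CPM against 93.7, 112 and 129 CPM and rose by 2.60 (SE 0.08, adjusted p = 3.50e-17), and Aspn had 808, 933 and 1135 CPM against 142, 183 and 235 CPM and rose by 2.48 (SE 0.08). Prelp rose by 2.37 (SE 0.15). Lum (lumican) went the other way in 7 of 7 libraries, with 849, 950.5 and 1222 CPM against 1746, 1869 and 1985 CPM and a fold change of -0.75 (SE 0.06, adjusted p = 7.13e-10). Dcn (decorin) differed by 0.33 (SE 0.06), with overlapping groups. Has2, the synthase of hyaluronan, fell by 1.89 (SE 0.29).

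Of 21 collagen genes tested, 11 were higher and 6 lower. Col14a1, a collagen that sits on fibril surfaces, had 521, 595 and 718 CPM against 121, 135 and 164 CPM and rose by 2.29 (SE 0.08, adjusted p = 4.50e-16). Col5a3 (3.14, SE 0.35), Col8a2 (2.36, SE 0.28) and Col11a1 (2.15, SE 0.17) rose more, or about as much, from lower levels. The fibril chains Col1a1 (0.91, SE 0.04), Col1a2 (0.78, SE 0.04) and Col3a1 (0.47, SE 0.04) were modestly higher in 7 of 7 libraries each. The basement membrane chains Col4a1 (-1.85, SE 0.13) and Col4a2 (-1.65, SE 0.11) were lower in 7 of 7 libraries. These 2 genes lie head to head and share exon bases on opposite strands, and whether the authors' counting used the strand is not given in the sources used here. Among enzymes that process the matrix, 24 of 33 tested were higher and 5 lower, with Htra3, a secreted serine protease (2.12, SE 0.13), and Timp1, an inhibitor of matrix proteases (1.65, SE 0.19), next after Adamts5.

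**Figure D2:**
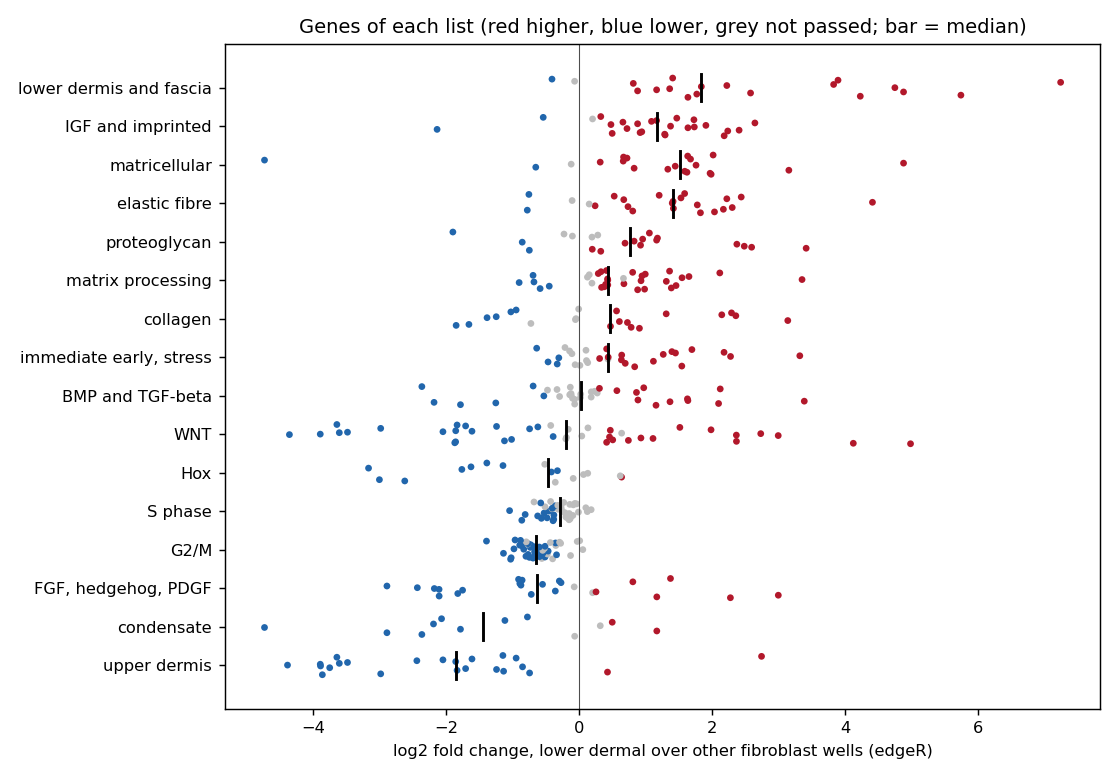
Log2 fold change of every tested gene of 16 gene lists, lower dermal over other fibroblast wells, with genes that passed as higher in red, as lower in blue and those that did not pass in grey; the bar is the median of the list. The lower dermis and fascia list has its median at 1.84 and the upper dermis list at -1.85, beside -0.03 over all genes tested.

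The upper dermis list had 21 of 23 tested genes lower, 2 higher and a median of -1.85. Beside Crabp1, Trps1 and Dkk1, Lef1, the nuclear factor that carries WNT signals to DNA, had 3.35, 9.95 and 15.8 CPM against 68.5, 83.9 and 121 CPM and fell by 2.98 (SE 0.20, adjusted p = 2.29e-11). Twist2, a factor of early dermis, had 258, 464 and 573 CPM against 957, 1091 and 1220 CPM and fell by 1.13 (SE 0.09). Thy1, a surface protein of fibroblasts, fell by 1.61 (SE 0.11). The exceptions were Zfhx3, a large homeobox factor, which rose by 2.74 (SE 0.16), and the guidance cue Ntn1, which had a fold change of 0.43 (SE 0.13) and overlapping groups.

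Of 41 WNT genes tested, 15 were higher and 19 lower, and both ligands and secreted inhibitors were found on either side. Among ligands, Wnt2 had 23.3, 47.8 and 77.2 CPM against 0.954, 1.00 and 3.65 CPM and rose by 4.98 (SE 0.30, adjusted p = 3.80e-12), Wnt2b rose by 4.12 (SE 0.41) and Wnt9a by 2.37 (SE 0.22), while Wnt11 fell by 1.12 (SE 0.31). Among secreted inhibitors, Sfrp1 had 362, 489 and 566 CPM against 46.1, 67.9 and 95.7 CPM and rose by 2.995 (SE 0.12, adjusted p = 1.35e-15). Sfrp2 (2.37, SE 0.09) and Dkk2 (2.73, SE 0.19) were also higher, whereas Sfrp5 (-4.35, SE 0.19), Dkk1 (-3.89, SE 0.29), Wif1 (-3.60, SE 0.22) and Notum (-3.48, SE 0.52) were lower, all 4 without overlap. The receptor Lgr5, which binds R-spondins, rose by 1.99 (SE 0.17). The feedback targets Sp5 (-3.64, SE 0.32) and Axin2 (-0.74, SE 0.18) were lower in 7 of 7 libraries, with 0 to 8.16 CPM of Sp5 in lower dermal wells against 44.4 to 61.8 CPM.

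Sp5 and Dkk1 are known to respond to WNT, whose nuclear factors of the TCF and LEF family bind sites with the core CTTTG. The 250 bases before their start, from RefSeq (GRCm38.p6), are printed 5′ to 3′ on the strand of the gene to show such letters beside the genes that fell. Capitals mark CTTTGAT in Sp5 (chr2:70474673-70474922, plus strand), whose first base lies 104 bases before the start, and CTTTGAA in Dkk1 (chr19:30549497-30549746, minus strand), 117 bases before the start.
Sp5: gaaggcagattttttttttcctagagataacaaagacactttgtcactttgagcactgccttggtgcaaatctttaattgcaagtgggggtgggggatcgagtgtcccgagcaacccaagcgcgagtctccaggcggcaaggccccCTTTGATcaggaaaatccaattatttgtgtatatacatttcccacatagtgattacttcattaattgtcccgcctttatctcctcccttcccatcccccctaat
Dkk1: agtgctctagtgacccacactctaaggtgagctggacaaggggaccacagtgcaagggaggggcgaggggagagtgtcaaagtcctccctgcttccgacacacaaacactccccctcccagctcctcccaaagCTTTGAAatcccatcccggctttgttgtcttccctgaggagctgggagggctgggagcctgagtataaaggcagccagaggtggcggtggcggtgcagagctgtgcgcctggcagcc
Of the 19 lower WNT genes 14 had such a window. CTTTGAT, searched on both strands, was in 2 of them (Sp5 and Wnt11), and CTTTGAA in 1 (Dkk1). Of the 15 higher WNT genes 9 had a window, and 0 held either. Of all 27025 genes with a window, 3.72% held CTTTGAT and 5.19% held CTTTGAA; the 2 motifs share their first 6 letters and cannot match at the same place. A match is a description of the letters only.

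Of 24 tested FGF, hedgehog and PDGF genes, 6 were higher and 16 lower. Fgf18 had 28.9, 59.7 and 67.6 CPM against 4.87, 7.27 and 11.8 CPM and rose by 2.997 (SE 0.20, adjusted p = 1.51e-11), and Fgf7, which signals to epithelium, rose by 2.28 (SE 0.18). Fgf10 had a fold change of 1.17 (SE 0.16) and was higher in 6 of 7 libraries, with overlapping groups. The FGF response genes Etv5 (-2.43, SE 0.19) and Dusp6 (-2.10, SE 0.17) were lower, and so was Gli1, the target of hedgehog signalling, at 2.63, 7.91 and 15.9 CPM against 60.6, 77.1 and 80.5 CPM (-2.89, SE 0.20, adjusted p = 5.59e-11).

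In the BMP and TGF-beta family 12 of 34 tested genes were higher, 6 lower and 16 did not pass, with a median of 0.02. Over all genes tested 17.7% were higher and 17.3% lower, so the number lower was near that share. The antagonist Chrdl1 rose by 3.39 (SE 0.28) and the ligands Tgfb3 and Gdf10 by 2.12 (SE 0.17) and 2.099 (SE 0.24), while the activin chain Inhba (-2.36, SE 0.31) and the ligand Bmp4 (-1.78, SE 0.27) were lower. Of 12 condensate genes tested 8 were lower and 2 higher, with a median of -1.45, Smoc1 and Gli1 showing the largest falls.

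Growth genes of the IGF axis and imprinted genes, which are expressed from 1 parental copy, were higher as a group: 22 of 25 tested were higher, 2 lower and the median was 1.17. Their summed level was 40893 to 57731 CPM in lower dermal wells and 18147 to 25449 CPM in the others. Plagl1, a zinc finger factor that regulates other imprinted genes, had 1410, 1823 and 2514 CPM against 228, 335 and 427 CPM and rose by 2.64 (SE 0.07, adjusted p = 1.65e-18). The imprinted cell cycle inhibitor Cdkn1c (p57) had 3926, 5026 and 6287 CPM against 1023, 1475 and 2019 CPM and rose by 1.91 (SE 0.05, adjusted p = 6.10e-18). Igf2, H19 and Meg3 rose by 1.30 (SE 0.05), 1.29 (SE 0.05) and 1.73 (SE 0.06), each without overlap, although Igf2 shares exon bases on its strand with Gm49394. Igf1 rose by 2.18 (SE 0.18). Of the binding proteins, Igfbp4 (2.41, SE 0.10) and Igfbp3 (2.24, SE 0.15) were higher and Igfbp5 lower, at 146, 229 and 296 CPM against 936, 992 and 1136 CPM (-2.13, SE 0.10, adjusted p = 1.56e-14).

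Agtr2 codes for an angiotensin receptor common in fetal mesenchyme and had 2118, 2338 and 2847 CPM against 602, 751 and 1107 CPM and rose by 1.68 (SE 0.07, adjusted p = 5.04e-15). It had a UMI in 130 of 130 lower dermal wells, in 74.6% of the others and in 13.4% of spike-in wells. In the list of secreted immune and chemokine genes 8 of 12 tested were higher and 2 lower. Ptn (pleiotrophin) rose by 2.88 (SE 0.09) and Csf1, a macrophage growth factor, by 1.61 (SE 0.15). Cxcl12, the ligand of Cxcr4, was lower in 7 of 7 libraries, at 34.8, 72.2 and 121.9 CPM against 169, 203 and 240 CPM (-1.27, SE 0.17, adjusted p = 1.68e-06).

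Transcription factors were split 21 higher to 20 lower of 53 tested. The 3 Runx genes were all lower: Runx3 had 0, 1.30 and 5.26 CPM against 40.3, 51.7 and 59.5 CPM (-4.83, SE 0.31), Runx1 fell by 3.01 (SE 0.33) and Runx2 by 2.64 (SE 0.18), all without overlap. Zeb2 fell by 2.58 (SE 0.14). The odd-skipped factor Osr2, a gene of deep connective tissue, had 181.4, 247 and 268.2 CPM against 49.3, 65.8 and 87.3 CPM and rose by 1.98 (SE 0.10). Meox2 rose by 1.88 (SE 0.39), higher in 6 of 7 libraries. Hox genes, which mark position along the body, had 9 of 16 tested lower and 1 higher. The largest falls were of Hoxc10 (-3.16, SE 0.23), Hoxa10 (-2.999, SE 0.38), Hoxa9 (-2.62, SE 0.26) and Hoxc9 (-1.76, SE 0.21). Hoxc10 shares exon bases with Hoxc5 on its strand. Hoxb3, the exception, had a fold change of 0.64 (SE 0.24) with overlapping groups.

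Among retinoic acid genes, Cyp26b1, the enzyme that degrades retinoic acid, had 0, 4.75 and 10.5 CPM against 73.2, 94.2 and 110 CPM and fell by 3.88 (SE 0.21, adjusted p = 5.80e-13), as Crabp1 did. Of 11 tested genes in the list 2 were higher, 4 lower and 5 did not pass, beside 17.7% higher and 17.3% lower over all genes tested. Guidance genes had 15 of 32 tested higher and 10 lower. The netrin receptor Unc5c rose by 4.18 (SE 0.39), Sema3b by 3.84 (SE 0.38) and Epha7 by 2.56 (SE 0.23), and Sema6d, Plxna4 (-2.34, SE 0.18) and Robo2 (-1.83, SE 0.20) were lower. The semaphorin receptor Nrp1 was lower in 7 of 7 libraries (-0.77, SE 0.09), while Nrp2 had 30.2, 62.2 and 73.6 CPM against 50.3, 70.6 and 85.3 CPM and did not pass (-0.13, SE 0.13, adjusted p = 0.512). The endothelial receptor Tek had 13.9 to 43.6 CPM in lower dermal wells and 0.208 to 1.76 CPM in the others, a fold change of 5.66 (SE 0.37), and it was the 1 gene higher of 3 tested endothelial markers. The 13 endothelial markers summed to 89.6 to 138 CPM against 85.9 to 109 CPM.

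Genes of the dividing cell were lower or did not pass. Of 53 G2/M genes 36 were lower and 0 higher, with a median of -0.64, and of 41 S phase genes tested 14 were lower and 0 higher by edgeR. At an unadjusted p under 0.05, and by DESeq2, the number higher was 0 in both lists. Birc5, needed for chromosome segregation, had 46.8, 92.0 and 143 CPM against 177.2, 203.6 and 249.4 CPM (-1.02, SE 0.17, adjusted p = 6.14e-05). Mki67 ranged from 78.1 to 603 CPM against 296 to 486 CPM, lower in 5 of 7 libraries (-0.65, SE 0.22, adjusted p = 0.0262). Ribosomal protein genes, taken by name, had 66 of 74 tested lower and 1 higher, with a median of -0.27. Immediate early and stress genes had 16 of 29 tested higher and 4 lower, with Klf4 and Klf2 (2.28, SE 0.17) first and Fos at 1332, 1546 and 2235 CPM against 848, 968 and 1311 CPM (0.84, SE 0.06). Junb (-0.33, SE 0.10) and Myc (-0.63, SE 0.15) were lower, so the list did not move as 1 group. Genes of this kind are known to respond to cell dissociation, and the part of that step was not tested.

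Shares of UMIs per library were computed from the same wells and gene lists, so they are no separate support. For each of these lists the share went in the direction of most of its called genes. The median share of UMIs in G2/M genes was 0.485% ± 0.207 (SD, n = 7 libraries) in lower dermal wells and 0.745% ± 0.0445 in the others, lower in 7 of 7 libraries (exact sign-flip permutation test, two-sided, p = 0.015625, adjusted p = 0.025 over 8 measures). In library 1 the 2 groups were nearly equal, at 0.813% and 0.816%. The S phase share was 0.313% ± 0.0624 against 0.418% ± 0.0202 and lower in 6 of 7 libraries (exact adjusted p = 0.0357). Ribosomal protein genes took 7.25% ± 0.726 against 9.53% ± 0.688 and were lower in 7 of 7 libraries (exact adjusted p = 0.025). The share of immediate early and stress genes was 1.51% ± 0.140 against 1.32% ± 0.0995, higher in 6 of 7 libraries (exact adjusted p = 0.0357).

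Depth moved with the groups as well. The median UMIs per well averaged 31889 ± 11155 in lower dermal wells and 23747 ± 8305 in the others, higher in 7 of 7 libraries (exact adjusted p = 0.025), and the share of spike-in molecules was lower, at 1.48% ± 0.722 against 1.88% ± 0.828 (exact adjusted p = 0.025). At an equal 3000 UMIs per well, 1542 ± 37.3 genes were detected against 1587 ± 24.5, lower in 7 of 7 libraries (exact adjusted p = 0.025). The mitochondrial share did not pass (1.78% ± 0.499 against 1.96% ± 0.511, exact adjusted p = 0.0625). The smallest exact p that 7 libraries allow is 0.015625, and with 6 it is 0.03125. With library 2, 3, 4, 5 or 6 left out, the adjusted p of the 5 measures that differed in 7 of 7 libraries was 0.05, and it stayed under 0.05 without library 1 or 7. The S phase share passed only without library 1, with an adjusted p of 0.0625 to 0.0714 without any other library, and the immediate early and stress share only without library 7, with 0.0714 otherwise. The mitochondrial share passed without library 7 (exact adjusted p = 0.0357). With every well thinned to 3000 UMIs before summing, a mean of 424.6 genes were higher and 362.6 lower over 5 random draws, of 3424.2 that could then be tested.

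**Figure D3:**
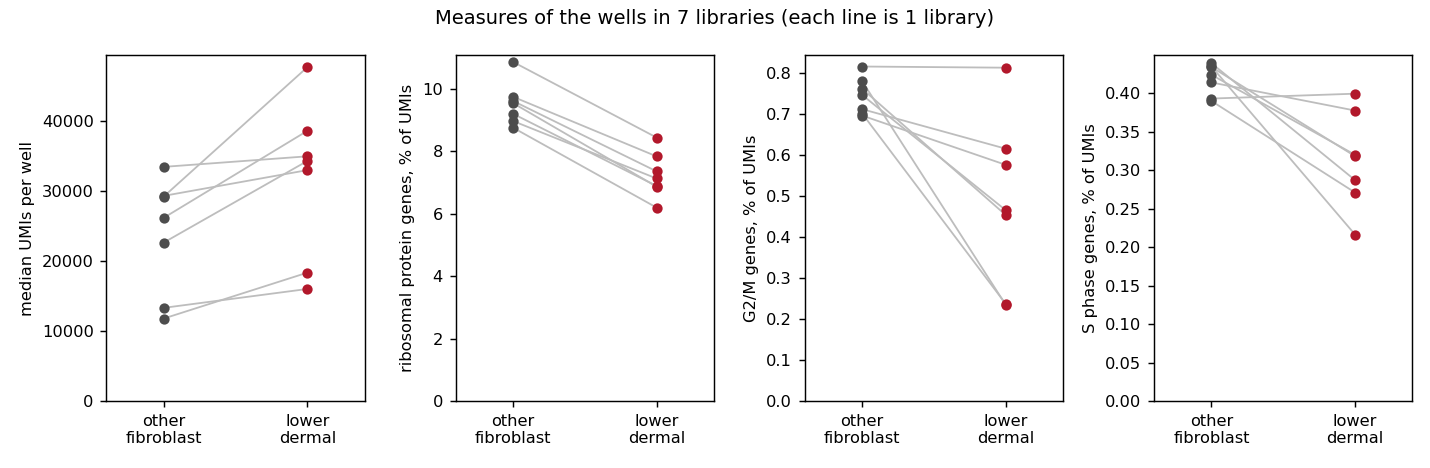
Median UMIs per well and the median share of UMIs in ribosomal protein, G2/M and S phase genes, in other fibroblast wells (grey) and lower dermal wells (red), with a line for each of the 7 libraries. Depth was higher and the ribosomal and G2/M shares lower in 7 of 7 libraries, and the S phase share was lower in 6 of 7.

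The score had no gap, and the wells just outside it were looked at in the same way. The 130 wells with the next highest scores lay between lower dermal wells and the remaining 895 for 11 of the 12 leading rises and for 12 of 12 leading falls. The median ratio to the remaining wells was 21.3 in lower dermal wells and 3.96 in the next 130 for the rises, and 0.0426 and 0.190 for the falls. Genes differed in how steeply they dropped outside the score, given here as the mean level in the next 130 wells as a percentage of that in lower dermal wells. It was 1.76% for Ly6a, 4.38% for Nov, 10.03% for Dpp4 and 17.0% for Pamr1, but 81.9% for Agtr2, 84.2% for Aspn, 89.8% for Igf2, 99.0% for Mfap4 and 106% for Igf1. Nrp2 was higher in the next 130 wells (142 CPM) than in lower dermal wells (58.3 CPM). With the 260 highest scores taken as lower dermal, Nrp2 rose by 0.79 (edgeR adjusted p = 1.04e-07), and with the score computed on thinned wells by 0.39 (adjusted p = 0.0401).

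The leading genes were chosen on these wells, so their number per well is a description and no separate support. At least 6 of the 12 leading rises had a UMI in 86.9% of the 130 lower dermal wells, in 59 of 1025 other fibroblast wells (5.76%) and in 2 of 68 condensate wells (2.94%). With wells thinned to 3000 UMIs, at least 3 of the 12 were found in 105 of 130 lower dermal wells (80.8%) and in 48 of 1025 others (4.68%). At least 6 of the 12 leading falls had a UMI in 3 of 130 lower dermal wells and in 704 of 1025 others.

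Lower dermal wells varied among themselves. In 3000 UMIs, the genes of the IGF and imprinted list had at least 82 UMIs and a median of 146 (47 in the others), matricellular genes between 19 and 98, with a median of 58 (26 in the others), and G2/M genes between 0 and 60, with a median of 5 (9 in the others). Spearman's rho over the 130 wells, all thinned and drawn from 7 libraries, was 0.45 between elastic fibre and matricellular genes, 0.39 between proteoglycan and matricellular genes and -0.41 between IGF and imprinted genes and G2/M genes. It was -0.03 between the lower dermis and fascia list and the proteoglycan list. These values describe wells, which share libraries and are not replicates.

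**Figure D4:**
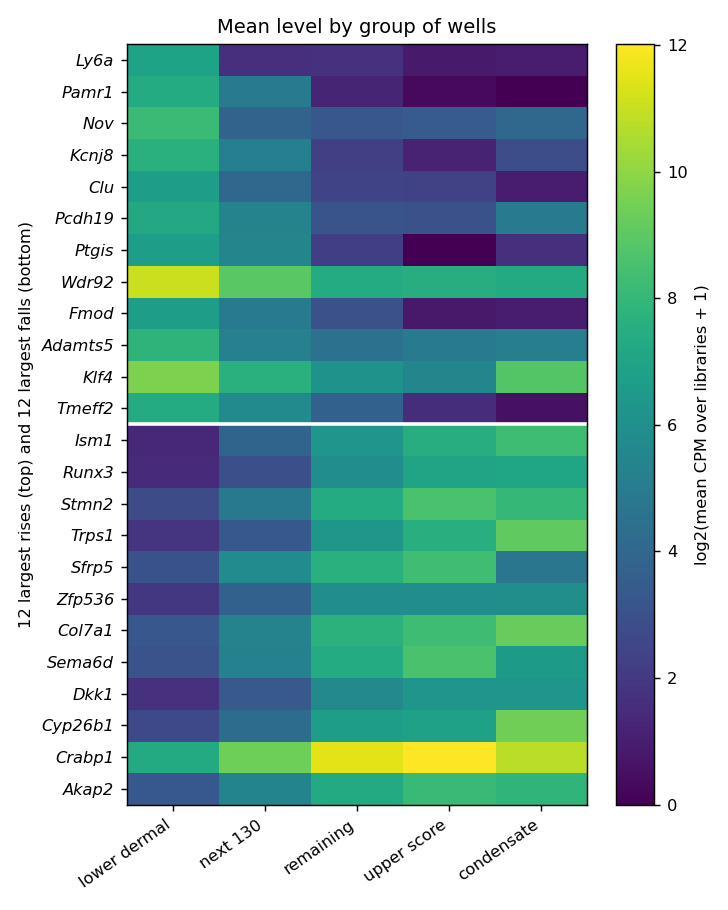
Mean level over libraries, as log2(CPM + 1), of the 12 leading rises (above the white line) and the 12 leading falls (below it) in lower dermal wells, the next 130 wells by score, the remaining fibroblast wells, the wells with the highest upper dermis score and the condensate wells. The next 130 wells are intermediate for 11 of the 12 rises and for 12 of the 12 falls.

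A pair of further groups of the same libraries was set beside the lower dermal wells; they share the lower dermal sums with the comparison above, so the comparisons are not independent. Upper score wells are the 130 fibroblast wells with the highest mean ln(1 + count per 10000) of Crabp1, Lef1, Axin2 and Ntn1, and 0 of them were lower dermal wells. Against them 1174 of 6421 tested genes were higher (18.3%) and 1113 lower (17.3%). Upper score wells were shallower, with a median of 15808 UMIs against 31324 in lower dermal wells, so values of 0 or 1 UMI there rest on shallower wells. Ptgis, at 69.6 to 129 CPM in lower dermal wells, had 0 UMIs in all upper score wells, and with 3 UMIs over the group as the floor it was at least 80.3-fold higher. Gpr133, an adhesion receptor, also had 0 UMIs there and was at least 56.8-fold higher. Aspn had 0, 6.49 and 22.6 CPM in upper score wells (log2 fold change 7.24, SE 0.24, adjusted p = 2.71e-17), and Agtr2 had 33.9, 47.1 and 64.9 CPM (5.82, SE 0.13, adjusted p = 4.13e-20). Pamr1, with 1 UMI in upper score wells, was 412 times higher, with a counting interval of 73.7 to 16277.

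The largest falls against upper score wells were again Ism1 (-6.31, SE 0.29), Stmn2 (-6.06, SE 0.22), Runx3 (-5.99, SE 0.32) and Trps1 (-5.72, SE 0.27). By list, 10 of 12 tested lower dermis and fascia genes and 18 of 21 elastic fibre genes were higher. So were 13 of 16 matricellular genes and 22 of 24 IGF and imprinted genes, while 14 of 15 tested upper dermis genes outside the score were lower. Both groups of wells were chosen by scores on these data, so these differences describe what went along with the scores. Of 49 G2/M genes tested 17 were lower by edgeR (8 by DESeq2) and 0 higher, but only 2 were lower in every library. Of 73 ribosomal protein genes 65 were lower and 0 higher. At an unadjusted p under 0.05 the number higher was also 0 in both lists, and by DESeq2 it was 0. Of 39 S phase genes tested 2 were higher and 4 lower by edgeR.

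Condensate wells, 64 in libraries 2 to 7, were compared with the lower dermal wells of those libraries. Of 5597 genes tested 1088 were higher (19.4%) and 981 lower (17.5%). Condensate wells were also shallower, with a median of 16560 UMIs over the 68 wells of libraries 1 to 7, against 31324 in all lower dermal wells. Values of 0 or 1 UMI in condensate wells rest on this lower depth. Pamr1 had 742 UMIs in lower dermal wells and 0 in condensate wells, so it was at least 76.6-fold higher, Gpr133 at least 30.2-fold and Fgf7 at least 21.3-fold. Tmeff2 and Ly6a had 1 UMI each in condensate wells, with ratios of 221 (counting interval 39.6 to 8756) and 173 (30.9 to 6836). On the lower side stood genes of the condensate: Foxd1 with 4 UMIs in lower dermal wells against 520 (-8.21, SE 0.30, adjusted p = 1.54e-13), Prdm1 with 4 UMIs against a mean of 330.7 CPM (-7.73, SE 0.36), and the row named eGFP, a fluorescent protein, with 1 against 289. Pdlim3 had 0 UMIs in lower dermal wells and was at least 244-fold higher in condensate wells.

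All 17 condensate genes tested were lower in lower dermal wells than in condensate wells, with a median of -5.10. Those wells carry the condensate name, and listed genes could pass the filter through their level there, so this is a description only. Of 17 matricellular genes 14 were higher, of 21 elastic fibre genes 15 and of 10 secreted immune and chemokine genes 9. Some genes that separate lower dermal from other fibroblast wells did not separate them from condensate wells: Igf1 (0.01, adjusted p = 0.971), Igfbp4 (-0.16, adjusted p = 0.297) and Col11a1 (0.01, adjusted p = 0.980) did not pass. Igf1 had a mean of 425 CPM in lower dermal, 111 CPM in other fibroblast and 510 CPM in condensate wells. Klf4 was higher in lower dermal than in condensate wells (1.04, SE 0.16), which at 448 CPM stood above the other fibroblast wells at 90.2 CPM. Lum, lower than in other fibroblast wells, was higher than in condensate wells (1.32, SE 0.13, adjusted p = 7.64e-08). For G2/M genes 0 of 39 tested passed in either direction by edgeR or DESeq2 against condensate wells, and 3 were higher and 0 lower at an unadjusted p under 0.05.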

How the data were processed

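Single-cell tables of 9 libraries were used, and the series' 12 bulk samples are not analysed here. The values deposited by the authors are expected counts of molecules: every value above 0 matched, within 0.005, the formula that turns observed UMIs into molecules over 4096 possible tags. The authors' tools, per the submitters' processing notes, include BWA 0.6.2-r126, TopHat2 2.0.3, Bowtie2 and Cufflinks 2.1.1 with mm10, and which of them made these tables is not given in the sources used here. The expected counts were recovered as whole UMIs by rounding, which changed 13.3% of the values above 0. The rounded sum was 101% of the recovered molecules. The design had assumed plain counts. Spike-in rows were left out of the sums. Fibroblast wells under 3000 UMIs (216, or 15.8%) were left out, and no doublet caller was run.

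UMIs were summed per library and group. They were tested with edgeR 4.0.16 (quasi-likelihood, TMM, default filter on low counts, library as a block because both sums come from the same library) in R 4.3.3, with limma 3.58.1 loaded and Benjamini-Hochberg adjustment at 0.05. DESeq2 1.42.0 was an alternative. Thinned sums were averaged over 5 random draws, a choice made after the counts of a single draw had been seen. Standard errors were derived from the quasi-likelihood F. The scripts were tested on simulated data, where the share of false calls was above the nominal level for the comparison with other fibroblast wells and below it for the other comparisons. Per-library shares were tested with an exact sign-flip permutation test (scipy 1.17.1). Intervals of shares are exact binomial at 95%, and intervals of ratios are exact for counts. Both cover counting error only.

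The members, gene lists and tests were chosen with earlier results of these data known. Named genes were the 12 largest rises and falls (6 in the other comparisons) with an adjusted p under 0.05, a log2 change of at least 0.5, a mean log2 CPM reaching 5 and 1 direction in every library, up to 4 genes per list, and a fixed set. A further 46 genes were named after their values were seen. Coordinates come from RefSeq (GRCm38.p6, the build called mm10). Of 185 genes with per-library values, 5 share exon bases with a gene on the same strand and 50 on the opposite strand. Some genes that the rule names are not reported here.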

Additional observations from a re-analysis of the deposited data

Results flagged for a closer look

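Of 33 per-library values checked in 7 libraries each, 7 had 1 library far from the other 6. Chance alone flags about 1 in 20 such groups. The values are log2 ratios of lower dermal to other fibroblast wells with 1 CPM added. Library 2 stood low for Crabp1 (-5.36, against -4.06 to -3.77 in the others), Sfrp5 (-7.48, against -5.25 to -3.77) and Akap2 (-7.44, against -4.30 to -2.99). Library 4 stood low for Sema6d (-7.25, against -5.01 to -3.65). In these libraries Sfrp5, Akap2 and Sema6d had 0 UMIs in lower dermal wells, so their ratios depend on the added CPM. Library 7 had the smallest rise of Ptgis (2.50, against 3.22 to 3.73) and of Adamts5 (2.78, against 3.15 to 3.38). The spike-in share of lower dermal wells fell furthest below that of the others in library 2, with a difference of -0.849 percentage points, against -0.433 to -0.257 elsewhere.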

How the results depend on the processing

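For the 12 leading rises and 12 leading falls, all 612 values that the alternatives gave kept their direction and stayed past the threshold. Genes that could not be tested in an alternative gave no value there and are not counted. With every well thinned to 3000 UMIs, 74 named genes kept their result, 8 lost significance and the rest gave no value. The 612 values therefore do not show that every leading gene held at equal depth. Over all named genes of the comparison with other fibroblast wells, which include 3 genes that did not pass, 4370 of 4504 values kept their direction or, where neither value passed, at least their side of the threshold, 130 lost significance and 3 turned. Of the values kept, 178 came from asking for at least 10 lower dermal wells per library. That setting could change nothing, since every library had at least 12. Nrp2 turned to 0.39 with the score on thinned wells and to 0.79 with 260 wells taken, and Ngfr to 0.24 with 260 wells. Plxnd1 passed with 260 wells only (-0.96).

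The counts of genes moved by over 1.5 times in a few settings. In libraries 1, 2 and 4 they were 763 higher and 567 lower (other fibroblast wells), 617 and 406 (upper score wells) and 530 and 351 (condensate wells, where only libraries 2 and 4 entered), with fewer samples. With wells thinned to 3000 UMIs (means over 5 draws) they were 424.6 and 362.6, 196.6 and 173, and 163.8 and 141, with fewer genes tested. With no filter 1825 genes were higher than in upper score wells and 1832 higher than in condensate wells, with more genes tested. DESeq2 called 723 lower against upper score wells, and the cause was not tested. With each library left out in turn, 1458 to 1725 genes were higher and 1380 to 1663 lower than in other fibroblast wells. With no replicate block, that is without pairing the sums by library, the counts were 1590 and 1379, 1086 and 963, and 1096 and 968, so the block changed none by over 1.5 times.

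With 1 library left out, the differences per well ranged from 6419 to 9246 for UMIs, -0.421 to -0.322 points for the spike-in share, -50.3 to -38.4 for genes detected, -0.124 to -0.0867 points for S phase, -0.302 to -0.212 for G2/M, -2.35 to -2.21 for ribosomal, 0.150 to 0.240 for immediate early and -0.214 to -0.135 for mitochondrial genes. The immediate early difference was 0.173 with the score on thinned wells and no longer passed.

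Low sums limit the genes near 0 in lower dermal wells, whose fold changes depend on a few UMIs.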

Other observations

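Further gene groups showed no common direction. Over all genes tested 17.7% were higher and 17.3% lower than in other fibroblast wells, and the number of glycolysis and hypoxia genes that were higher was near that share. Of 21 glycolysis and hypoxia genes tested 4 were higher and 7 lower in lower dermal than in other fibroblast wells, with a median log2 fold change of -0.05, and Egln3, an oxygen-sensing hydroxylase, fell by 2.22. Of 28 adhesion and integrin genes 9 were higher and 9 lower. Cd44, the hyaluronan receptor, was higher (1.67), as was the cadherin Cdh2 (1.35), and the integrin chains Itga6 (-2.25) and Itga8 (-1.26) were lower. Of 18 genes that inhibit or restrain cyclin-dependent kinases 5 were higher, Cdkn1c among them, and 5 lower, among them Cdkn1a (-1.11) and Cdkn2c (-0.91).

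Of 3 cartilage markers tested 2 were higher and 1 lower, and the summed level of 11 was 40.3 to 314 CPM in lower dermal wells against 43.9 to 66.7 CPM in the others. The 11 Schwann cell markers summed to 220.0 to 426 CPM against 187 to 270 CPM, with Gap43 higher (1.32) and Ngfr lower (-1.84). The 14 macrophage and mast cell markers summed to 47.8 to 178 CPM against 56.8 to 302 CPM, with 2 of 4 tested lower. The part of these cell types in the results was not tested.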
